A study of Mus musculus with 8 samples.

Results

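The Slc37 family has 4 members, Slc37a1 to Slc37a4, and all 4 were among the 53379 genes listed for these libraries. They were taken by gene symbol, and the family was chosen by the level of Slc37a2 in the untreated libraries, where it was high in the controls and about 2-fold lower in the knockouts. RNA was sequenced from epithelial cells of the distal colon of C57BL/6 mice, in 8 libraries that formed 4 groups of 2. The controls, written WT here, carried floxed Rora (RORaf/f), and the knockouts, written KO, lacked Rora in the intestinal epithelium (RORaΔIEC). Rora encodes a nuclear receptor that binds DNA. Each genotype was untreated or was given DSS (dextran sulfate sodium), which damages the lining of the colon, at 2% (w/v) in the drinking water for 5 days, with 3 days of plain water after it. The Cre driver behind the deletion, the age of the mice and whether the floxed alleles stand alone in the controls are not given in the sources used here. Nothing in them says that the 2 libraries of a group came from separate animals, so each SD and p-value covers library-to-library spread alone, which may be technical.

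SLC37 proteins sit in the membrane of the endoplasmic reticulum or of related organelles. SLC37A1, SLC37A2 and SLC37A4 move sugar phosphates in exchange for inorganic phosphate. The best known is SLC37A4, the glucose-6-phosphate transporter, which feeds glucose 6-phosphate to the glucose-6-phosphatase enzymes in the lumen and is lost in glycogen storage disease type Ib. SLC37A1 and SLC37A2 exchange the same sugar for phosphate but are not known to work with glucose-6-phosphatase, and SLC37A2 is known mainly from macrophages. SLC37A3 forms a complex with ATRAID in lysosomes, where the pair releases bisphosphonate drugs into the cytosol.

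Total expected counts were between 15971642 and 20418466 per library, and between 20445 and 21045 genes had a count. Slc37a2 had 7295 and 6550 counts in untreated WT, and 2086 and 1975 in KO under DSS. Every expected count of the 4 members was a whole number, and each is given below as counts-per-million (CPM) after scaling for library composition. Rora itself, the targeted gene, had 12 and 6 counts (untreated WT), 4 and 3 (untreated KO), 16 and 14 (WT under DSS), and 8 and 5 (KO under DSS). These few reads are counted over the whole gene and do not show the deleted part. The epithelial label was checked against 7 defining markers (Epcam, Krt8, Krt18, Krt19, Cdh1, Vil1 and Cdx2), all of which were detected in every group, and their summed level was between 13587 and 16376 CPM.

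By GENCODE M21 for mm10, Slc37a2 (ENSMUSG00000032122.15) spans chr9:37227585-37255738 on the minus strand, and Slc37a4 (ENSMUSG00000032114.9) spans chr9:44396852-44402968 on the plus strand. Slc37a1 (ENSMUSG00000024036.15) spans chr17:31286792-31350739 on the plus strand, and Slc37a3 (ENSMUSG00000029924.12) spans chr6:39334773-39377675 on the minus strand. Promoter windows from RefSeq (build GRCm38.p6), from 250 bases before to 50 after a transcript start, were found for all 4 genes and numbered 7 in all. They were searched on both strands for AGGTCA (reverse complement TGACCT), the half-site that nuclear receptors of the ROR family recognise, and for TAGGTCA (reverse complement TGACCTA), which contains it. AGGTCA was in 2 of the 7 windows and TAGGTCA in 1 of them, against 16.3% and 2.61% of all 32851 windows of the same length. The 250 bases before the start are shown for Slc37a2, the member that differed most between genotypes, and for the 2 members whose windows held a match, 5′ to 3′ on the strand of the gene and with the match in capitals.
Slc37a2, chr9:37255739-37255988, minus strand: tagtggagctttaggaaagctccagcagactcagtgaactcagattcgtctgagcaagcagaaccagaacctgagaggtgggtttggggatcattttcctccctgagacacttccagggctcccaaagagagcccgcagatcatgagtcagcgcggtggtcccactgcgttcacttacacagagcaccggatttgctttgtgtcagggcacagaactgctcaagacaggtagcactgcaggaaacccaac
Slc37a3, chr6:39377708-39377957, minus strand: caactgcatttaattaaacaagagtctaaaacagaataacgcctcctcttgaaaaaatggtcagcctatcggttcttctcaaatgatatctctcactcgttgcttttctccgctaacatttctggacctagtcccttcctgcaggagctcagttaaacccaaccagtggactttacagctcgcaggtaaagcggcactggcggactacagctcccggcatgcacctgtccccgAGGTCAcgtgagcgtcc
Slc37a4, chr9:44396696-44396945, plus strand: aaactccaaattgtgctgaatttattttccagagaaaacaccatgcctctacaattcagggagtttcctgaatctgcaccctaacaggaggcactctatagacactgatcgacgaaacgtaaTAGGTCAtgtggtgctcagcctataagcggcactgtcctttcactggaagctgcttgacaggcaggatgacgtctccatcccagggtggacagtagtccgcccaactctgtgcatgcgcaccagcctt
The match in the Slc37a3 window began 17 bases before the start, and the match in the Slc37a4 window began 128 bases before it. The windows of Slc37a2 and Slc37a1 held neither string in these letters.

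Slc37a2 was at 365 and 367 CPM in the 2 untreated WT libraries and at 182 and 184 CPM in the 2 untreated KO libraries. Under DSS it was at 165 and 163 CPM in WT and at 120 and 113 CPM in KO. All 4 groups were separate: untreated WT stood highest, untreated KO came next, WT under DSS lay just under untreated KO, and KO under DSS was lowest. The group means were 366 ± 1.32, 183 ± 1.52, 164 ± 1.77 and 117 ± 4.95 CPM (SD, n = 2) in that order. The ratio of untreated KO to untreated WT was 0.500, a difference of -1.001 ± 0.042 on the log2 scale (SE, with a 95% interval from -1.09 to -0.91), and it is the difference that chose the gene.

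**Figure D1:**
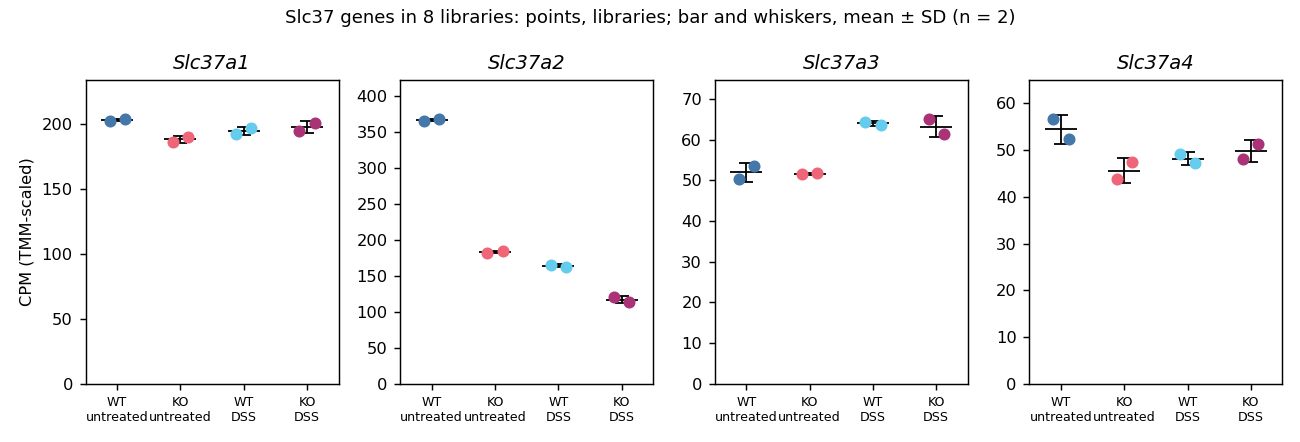
Level of each Slc37 member in CPM (vertical axes from 0) in the 4 groups, with 1 point per library, a bar at the group mean and whiskers of 1 SD (n = 2). Each panel has its own scale. Slc37a2 steps down from 366 CPM in untreated WT to 117 CPM in KO under DSS, while the groups of the 3 paralogs lie close together.

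The question left to the DSS-treated libraries, which had no part in that choice, was whether the knockouts were also lower in the injured colon. Slc37a2 fell in KO against WT under DSS, by 0.49 ± 0.04 on the log2 scale (SE, 95% interval of the difference from -0.59 to -0.40, edgeR quasi-likelihood test with Benjamini-Hochberg adjustment, adjusted p = 9.39e-07). This is a KO to WT ratio of 0.711, and both KO libraries lay under both WT libraries. In this comparison 39.1% of the 14991 genes tested passed the threshold of 0.05, 21.3% of them higher and 17.7% lower in KO. With any 1 library left out, the difference was between -0.54 and -0.45, and it passed each time.

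Among the 3 paralogs, whose groups overlapped here, none passed. Slc37a1 was at 192 and 196 CPM in WT and at 194 and 201 CPM in KO under DSS, a difference of 0.02 (95% interval from -0.06 to 0.11, adjusted p = 0.676 by edgeR). Slc37a3 was at 64.4 and 63.6 CPM in WT and at 65.0 and 61.5 CPM in KO, a difference of -0.02 (interval from -0.13 to 0.10, adjusted p = 0.824 by edgeR). Slc37a4 was at 49.2 and 47.2 CPM in WT and at 48.2 and 51.4 CPM in KO, a difference of 0.05 (interval from -0.09 to 0.18, adjusted p = 0.582 by edgeR). Each of these intervals lies above -0.40, the upper end of the interval of Slc37a2.

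In the untreated colon the same genotype comparison is given as a description only. Here 15.4% of all genes tested passed, 9.19% higher and 6.22% lower in KO. Slc37a1 was at 202 and 203 CPM in WT and at 186 and 190 CPM in KO, a difference of -0.11 ± 0.04 (SE, log2) with separate groups. Slc37a4 was at 56.6 and 52.3 CPM in WT and at 43.7 and 47.4 CPM in KO. Its difference was -0.26 ± 0.06, also with separate groups. How many of all genes had separate groups here was not counted. With so few libraries per group, the separation of Slc37a1 and Slc37a4 is a description and no test. The ratio of KO to WT for Slc37a4 was 0.838, closer to 1 than the 0.500 of Slc37a2. Slc37a3 overlapped between genotypes, at 50.4 and 53.6 CPM in WT and at 51.5 and 51.8 CPM in KO. Of the 2058 genes with at least 100 CPM in untreated WT, Slc37a2 was the 1 with the lowest ratio of KO to WT in the untreated colon. That rank rests on the level and ratio for which the gene was chosen, so it restates the choice and is no separate support. Under DSS, 85 of the 2058 genes, Slc37a2 included, had a KO to WT difference at least as low as that of Slc37a2.

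**Figure D2:**
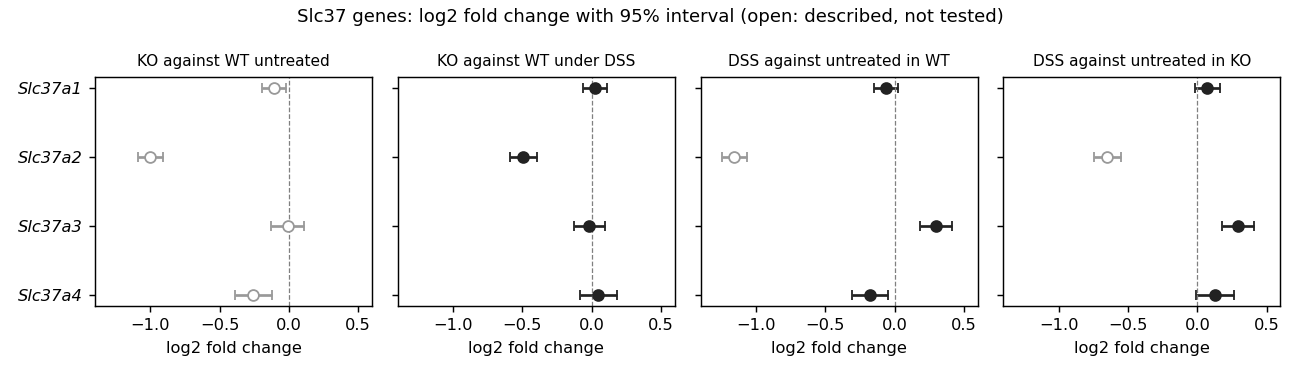
Difference on the log2 scale for each Slc37 member in the 4 comparisons of groups, with 95% intervals from the edgeR fit (horizontal axis, 0 marks no difference, open points were not tested). Slc37a2 lies farthest from 0 in each panel, at -1.001 and -0.49 for KO against WT in the untreated and the DSS-treated colon.

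DSS was associated with lower Slc37a2 in both genotypes. The ratio of DSS to untreated was 0.448 in WT (-1.16 ± 0.04, SE, log2) and 0.637 in KO (-0.65 ± 0.04). The difference between these, the interaction, was 0.51 ± 0.06 (95% interval from 0.38 to 0.64). These 3 values use the untreated libraries on which Slc37a2 was chosen, so they carry no test. The KO libraries stood lower than the WT libraries both before and after DSS.

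Slc37a3 rose with DSS in both genotypes. It went from 50.4 and 53.6 to 64.4 and 63.6 CPM in WT (0.30 ± 0.05, SE, log2, adjusted p = 0.000542 by edgeR) and from 51.5 and 51.8 to 65.0 and 61.5 CPM in KO (0.29 ± 0.05, adjusted p = 0.000580 by edgeR). The treated libraries lay above the untreated ones in each genotype, and the DSS changes of the 2 genotypes differed by -0.010 (95% interval from -0.17 to 0.15, adjusted p = 0.946 by edgeR). With offsets for effective gene length, the rise in WT was 0.24 and did not pass (adjusted p = 0.104). Over all genes tested, 37.2% passed for DSS in WT, 18.9% higher and 18.3% lower. For DSS in KO 41.6% passed, 21.7% higher and 19.8% lower.

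Slc37a4, the glucose-6-phosphate transporter of the endoplasmic reticulum, fell with DSS in WT by 0.18 ± 0.06 on the log2 scale (SE, adjusted p = 0.0356 by edgeR), from 56.6 and 52.3 to 49.2 and 47.2 CPM. In KO it was at 43.7 and 47.4 CPM untreated and at 48.2 and 51.4 CPM under DSS, a difference of 0.13 that did not pass (adjusted p = 0.132 by edgeR). The DSS changes differed between genotypes by 0.30 ± 0.09 (interaction, adjusted p = 0.0258 by edgeR), a comparison in which 21.4% of all genes passed, 10.8% with a positive and 10.6% with a negative value. Both calls for Slc37a4 were fragile. DESeq2 called neither (adjusted p = 0.224 in WT and 0.172 for the interaction), nor did offsets for effective gene length (0.216 and 0.165). The fall in WT was -0.12 (adjusted p = 0.280) without replicate 1 of untreated WT, -0.21 (0.0782) without replicate 1 of DSS-treated WT and -0.15 (0.195) without its replicate 2. The interaction did not pass without replicate 1 of untreated WT (0.128), replicate 1 of untreated KO (0.134), replicate 1 or 2 of DSS-treated WT (0.0570 and 0.0967) or replicate 2 of DSS-treated KO (0.0589). Slc37a1 passed in no DSS comparison: its change with DSS was -0.06 in WT (adjusted p = 0.267 by edgeR) and 0.07 in KO (0.195), and its interaction was 0.13 (0.128). That interaction passed without replicate 1 of DSS-treated KO (0.16, adjusted p = 0.0307).

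Per gene length the order of the family changed between groups. In transcripts-per-million (TPM), Slc37a2 stood first in untreated WT at 125 and 131, ahead of Slc37a1 at 84.3 and 87.7, Slc37a4 at 42.3 and 40.3 and Slc37a3 at 21.5 and 27.0. In untreated KO it came second, at 64.6 and 67.1 TPM, under Slc37a1 at 81.7 and 83.0. In WT under DSS it was again second, at 62.1 and 61.3 TPM under 89.1 and 90.7 for Slc37a1. In KO under DSS it was at 48.0 and 43.8 TPM and overlapped Slc37a4, at 39.9 and 44.1, whereas Slc37a1 was at 93.9 and 95.6. Other neighbours in the order did not overlap in any group. Among all genes with a TPM above 0, Slc37a2 ranked 926th of 22681 in untreated WT and 3079th of 22807 in KO under DSS.

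**Figure D3:**
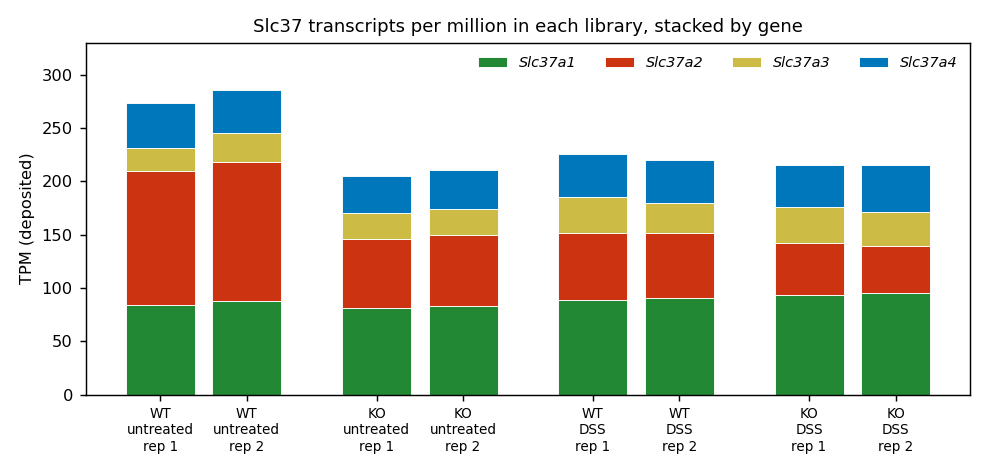
TPM of the 4 Slc37 members in each library, stacked by gene (vertical axis from 0). Slc37a2 is the largest segment in both untreated WT libraries, and Slc37a1 is the largest in the 6 other libraries.

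Slc37a2 made up 45.8% ± 0.0537 of the summed TPM of the family in untreated WT. Its share was 31.7% ± 0.283 in untreated KO, 27.6% ± 0.232 in WT under DSS and 21.3% ± 1.38 in KO under DSS (SD, n = 2). The ratio of Slc37a2 to Slc37a1 went from 1.48 and 1.49 in untreated WT to 0.511 and 0.458 in KO under DSS. The 3 paralogs summed to 148 and 155 TPM (untreated WT), 141 and 143 (untreated KO), 164 and 159 (WT under DSS), and 168 and 172 (KO under DSS). Their sum was thus highest in the group where Slc37a2 was lowest, but lowest in untreated KO. The summed family was at 273 and 286 TPM in untreated WT and between 205 and 226 TPM in the other 6 libraries. These TPM values depend on the mean transcript length that RSEM assigns to a gene in each library. That length varied by 2.55% over the libraries for Slc37a2 and 1.24% for Slc37a1, against 7.76% for Slc37a4 and 20.1% for Slc37a3.

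By GENCODE M21, 2 genes overlap Slc37a2, both on the opposite strand. The antisense gene Gm48081 is not among the genes listed for these libraries, so its reads were not counted. The pseudogene Gm10177 lies inside Slc37a2 and had few reads. No strand setting is stated, so reads from any stretch that Slc37a2 shares with either gene cannot be assigned by strand. Whether their exons overlap was not examined. The expected count of Slc37a2 was a whole number in each of the 8 libraries. Counts of Gm10177 were 96 and 87 (untreated WT), 81 and 98 (untreated KO), 90 and 81 (WT under DSS), and 158 and 161 (KO under DSS). It rose in KO against WT under DSS (0.85 ± 0.13, SE, log2, adjusted p = 0.000172 by edgeR), where Slc37a2 fell. Within 250 kb of the start of Slc37a2, 18 genes are listed and 5 of them were tested. None of the 5 passed in untreated KO against WT by edgeR or DESeq2, and 1 had an unadjusted p under 0.05, as had 4216 of all 14991 genes tested. Gm10177 was the 1 of 5 that passed in KO against WT under DSS, where 39.1% of all genes passed. Hepacam, an adhesion molecule gene 140 kb away, fell with DSS in WT (-1.82, adjusted p = 0.000171 by edgeR) and in KO (-2.13, 0.000159). Its mean levels were low, from 2.55 to 0.714 CPM in WT and from 1.78 to 0.402 CPM in KO. Tmem218 fell in WT (-0.44, adjusted p = 0.0219 by edgeR). For DSS in WT, DESeq2 called 1 of the 5 neighbours where edgeR called 2.

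The partner genes of the paralogs were measured in the same fit. Atraid, whose product pairs with SLC37A3, was at 64.8 and 62.9 CPM in untreated WT and at 55.2 and 52.3 CPM in untreated KO, and it fell in KO (-0.25 ± 0.05, SE, log2, adjusted p = 0.00539 by edgeR). That call was lost with DESeq2 (adjusted p = 0.0548) and without replicate 1 of untreated WT (0.0628) or replicate 2 of untreated KO (0.0929). Atraid also fell with DSS in WT (-0.19, adjusted p = 0.0111 by edgeR), a call lost with DESeq2 (0.129) and without replicate 1 of untreated WT (0.0888) or of DSS-treated WT (0.114). G6pc, the glucose-6-phosphatase of liver and kidney, had 0 counts in all 8 libraries. G6pc3, the widely expressed glucose-6-phosphatase, fell with DSS in WT from 50.6 and 52.4 to 43.3 and 43.7 CPM (-0.24 ± 0.06, adjusted p = 0.00362 by edgeR), a call lost with DESeq2 (-0.25, 0.0603). In KO, G6pc3 was at 49.7 and 48.7 CPM untreated and at 43.2 and 46.7 CPM under DSS and did not pass (adjusted p = 0.0821), although it passed without replicate 2 of DSS-treated KO (0.0274). Slc37a3 and Atraid thus differed in direction for DSS in WT, at 0.30 and -0.19.

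Genes that make or use glucose 6-phosphate formed a list of 27, of which 23 were tested. In untreated KO against WT, 4 rose and 2 fell, a share of calls to be read against the 15.4% of all genes, with a median of 0.05 against 0.0070 over all genes. Hk2, a hexokinase that makes glucose 6-phosphate, rose by 0.43 ± 0.05 (SE, log2, adjusted p = 2.96e-05 by edgeR), and Hkdc1, a hexokinase-like gene, rose by 1.07 ± 0.14 (adjusted p = 0.000121). Hk1 rose by 0.21 (adjusted p = 0.00302), but did not pass without replicate 1 of untreated WT (0.0506) or replicate 2 of untreated KO (0.0650). The 2 that fell were Slc5a1, the sodium-glucose cotransporter gene (-0.18, adjusted p = 0.00854), and Slc2a5, the fructose transporter gene (-0.46, 0.0291). Slc5a1 did not pass without replicate 2 of untreated WT (0.0774) or replicate 1 or 2 of untreated KO (0.103 and 0.0768). Slc2a5 did not pass without any 1 of the 4 untreated libraries (0.0549 to 0.228), nor with DESeq2 (0.306), and with offsets for effective gene length its difference was -0.24 (0.652).

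Under DSS, 10 of the 23 rose and 1 fell in KO against WT, where 21.3% of all genes rose and 17.7% fell, with a median of 0.05 against -0.0062 over all genes. Hk2 was at 135 and 132 CPM in WT and at 283 and 260 CPM in KO (1.02 ± 0.05, SE, log2, adjusted p = 1.21e-09 by edgeR), so both KO libraries lay well above both WT libraries. G6pdx, which starts the pentose phosphate pathway from glucose 6-phosphate, rose by 0.48 ± 0.05 (adjusted p = 1.88e-06), from 76.9 and 75.8 to 108 and 106 CPM. H6pd, its counterpart inside the endoplasmic reticulum, where it uses glucose 6-phosphate brought in by SLC37A4, rose by 0.66 ± 0.08 (adjusted p = 2.05e-05). Slc37a4 itself differed by 0.05 in this comparison, with the interval given above. The 1 that fell was Slc2a5 (-0.56, adjusted p = 0.00618), which did not pass without replicate 1 of DSS-treated WT (0.0573) or with DESeq2 (0.108) or effective-length offsets (0.254). Hk3, the hexokinase of blood cells, had 1, 1, 0 and 1 counts in the untreated libraries, 3 and 8 in WT under DSS, and 35 and 28 in KO under DSS.

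**Figure D4:**
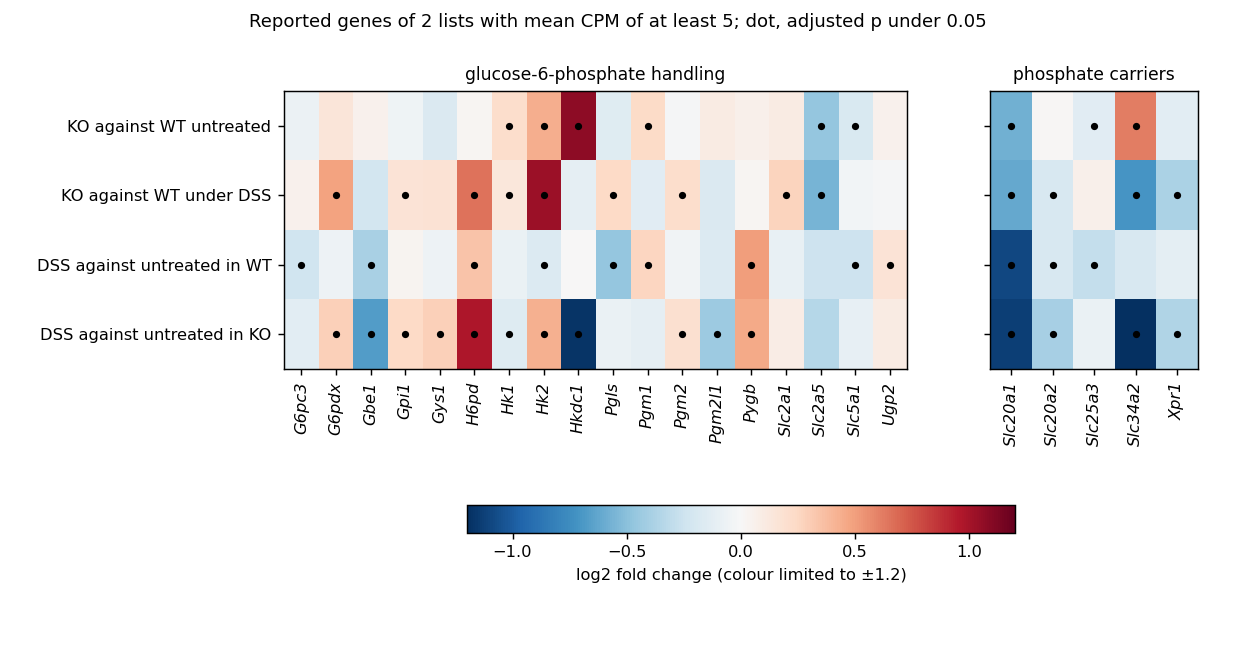
Difference on the log2 scale (colour) for the reported genes of the glucose 6-phosphate and phosphate carrier lists with a mean of 5 CPM or more, in the 4 comparisons of groups, with a dot where the adjusted p was under 0.05. Hk2 is higher in KO under both treatments (0.43 and 1.02), and Slc20a1 is lower in all 4 comparisons of groups.

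With DSS, 6 of the 23 rose and 5 fell in WT, where 37.2% of all genes passed, and 10 rose and 4 fell in KO, where 41.6% passed. The medians were -0.06 and 0.08, against -0.0069 and 0.00091 over all genes. Pygb, a glycogen phosphorylase, rose in both genotypes (0.50 in WT, adjusted p = 4.45e-07 by edgeR, and 0.46 in KO, 5.99e-07). Pgm1, a phosphoglucomutase, rose in WT (0.25, adjusted p = 0.00194), and Hk2 and H6pd rose in KO (0.43, 3.75e-06, and 0.97, 4.64e-07). Gbe1, the glycogen branching enzyme, fell in both (-0.39 in WT, 0.00199, and -0.67 in KO, 2.13e-05), although the call in WT was lost with DESeq2 (-0.40, adjusted p = 0.0679) and with effective-length offsets (-0.31, 0.0511). Pgls of the pentose phosphate pathway and Slc5a1 fell in WT (-0.47, 0.000248, and -0.25, 0.000319). Hkdc1 and the phosphoglucomutase relative Pgm2l1 fell in KO (-1.18, 1.14e-05, and -0.43, 0.000575).

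Phosphate is the counter-substrate of SLC37A1, SLC37A2 and SLC37A4, and 6 of 7 phosphate carrier genes were tested. In untreated KO 1 rose and 2 fell, where 15.4% of all genes passed, with a median of -0.13 against 0.0070 over all genes. Under DSS 1 rose and 4 fell in KO against WT, where 39.1% of all genes passed, with a median of -0.28 against -0.0062. With DSS, 3 fell in WT, where 37.2% of all genes passed, and in KO 1 rose and 4 fell, where 41.6% passed. The medians for DSS were -0.19 and -0.38, against -0.0069 and 0.00091 over all genes. Slc20a1, a sodium-phosphate importer, was at 878 and 867 CPM (untreated WT), 581 and 588 (untreated KO), 405 and 415 (WT under DSS), and 271 and 264 (KO under DSS). Its 4 groups were separate and stood in the same order as those of Slc37a2. That order was not particular to Slc20a1. The colonocyte markers Aqp8, Car4 and Slc26a3 and the goblet cell markers Clca1 and Zg16 had it too, with separate groups. The other colonocyte and goblet cell markers did not. The share of all genes with this order was not counted. Slc20a1 fell in all 4 comparisons by edgeR: by 0.58 in untreated KO (adjusted p = 2.27e-07), by 0.62 in KO under DSS (2.59e-08), and with DSS by 1.09 in WT (6.32e-11) and by 1.13 in KO (2.34e-11). Slc34a2, another sodium-phosphate importer, rose in untreated KO (0.61, adjusted p = 0.000180) but fell in KO under DSS (-0.71, 8.44e-05) and with DSS in KO (-1.52, 1.10e-08).

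The phosphate exporter Xpr1 fell in KO under DSS (-0.38, adjusted p = 6.02e-05 by edgeR) and with DSS in KO (-0.36, 7.78e-05). Slc34a1, best known from the kidney, had few counts: 13 and 14 without DSS in WT, 8 and 11 without DSS in KO, 23 and 19 with DSS in WT, and 57 and 57 with DSS in KO. It rose in KO under DSS (1.38, adjusted p = 0.000441 by edgeR) and with DSS in KO (2.45, 8.26e-06). Slc20a2 fell in KO under DSS (-0.19, adjusted p = 0.0277), with DSS in WT (-0.19, 0.0201) and with DSS in KO (-0.39, 0.000127), and DESeq2 did not call the first 2 of these (0.271 and 0.248). Without any 1 of the 4 libraries compared, the fall of Slc20a2 in KO under DSS did not pass (0.0537 to 0.118), nor did its fall with DSS in WT (0.0746 to 0.105). The mitochondrial phosphate carrier Slc25a3 fell with DSS in WT (-0.28, adjusted p = 0.000147) and in untreated KO (-0.14, 0.0427). The latter call was lost with the replicate number as a block (adjusted p = 0.0599), without any 1 of the 4 untreated libraries (0.0757 to 0.288) and without replicate 1 or 2 of DSS-treated WT (0.0725 and 0.0704).

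Markers of other cells moved with the groups. The 12 macrophage markers, all detected in each group, summed to between 48.9 and 50.9 CPM in WT and 49.4 and 51.5 in KO without DSS, 76.2 and 76.7 in WT under DSS, and 163 and 172 in KO under DSS. The sum was highest in the group where Slc37a2 was lowest. In each group most of it was Cd14. Without DSS, Cd14 was at 39.4 and 40.7 CPM in WT and 39.7 and 42.3 CPM in KO. Under DSS it was at 47.2 and 47.8 CPM in WT and 106 and 112 CPM in KO. The others were low in the untreated libraries and not level. Mrc1 rose in untreated KO, from 0.951 and 0.728 to 2.03 and 2.51 CPM (adjusted p = 0.00314 by edgeR). Lyz2 was at 2.95 and 2.69 CPM in untreated WT and at 2.16 and 1.22 CPM in untreated KO (0.0756 by edgeR). Of the 7 neutrophil markers, 4 were at 0 counts in both untreated WT libraries and 5 in both untreated KO libraries, S100a8 and Retnlg among them. Their sum was between 85.8 and 99.3 CPM in the untreated libraries, nearly all of it Ly6g, between 51.3 and 54.8 in WT under DSS and between 282 and 306 in KO under DSS. With DSS in WT, 5 of the 6 tested neutrophil markers rose, where 18.9% of all genes rose and 18.3% fell. These 5 had 0 or 1 counts per untreated WT library and 6 to 61 per WT library under DSS. Ly6g fell, from 99.2 and 97.2 to 42.2 and 44.7 CPM, so the lower sum there was that of Ly6g. Summed mature colonocyte markers were at 5333 to 5379 CPM in WT and 5516 to 5521 in KO without DSS, 3343 to 3356 in WT under DSS and 3073 to 3130 in KO under DSS. Its members went both ways in untreated KO against WT: Krt20 had a ratio of 1.59, Car4 of 0.818 and Aqp8 of 0.687. Summed goblet cell markers were at 15592 to 15940 CPM in untreated WT and 15187 to 15202 in untreated KO. Under DSS they were at 7817 and 8169 in WT and 5892 and 6039 in KO. The 5 markers did not move alike. For DSS in WT the ratios were 0.265 (Clca1), 0.411 (Fcgbp), 0.497 (Zg16), 0.904 (Muc2) and 1.47 (Spink4). For untreated KO against WT they were 1.24 (Muc2), 1.13 (Spink4), 0.933 (Fcgbp), 0.854 (Clca1) and 0.821 (Zg16). The 4 proliferation markers were between 279 and 283 CPM in WT and 415 and 419 in KO without DSS, 322 and 332 in WT under DSS, and 657 and 730 in KO under DSS. Summed markers of T cells reached 3.15 CPM at most, in KO under DSS, and those of B and plasma cells 3.30, in WT under DSS. Summed fibroblast markers were at 6.61 and 7.31 CPM in WT and 10.4 and 11.2 in KO without DSS. Under DSS they were at 4.99 and 5.18 CPM in WT and 10.9 and 11.1 in KO. The part of these markers in the levels of Slc37a2 was not tested. In bulk RNA, fewer cells of a type and less RNA per cell cannot be told apart.

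The genes whose levels followed Slc37a2 most closely were ranked by Pearson's r of log2 CPM over the 8 libraries. Of the 10572 genes that averaged 5 CPM or more, 9834 were compared. Gene models without a proper symbol (such as Gm and Rik names), all genes on chr18 and Slc37a2 itself were left out, so the ranking does not cover them. The first 10 were Cyp2d10 (r = 0.990), Zfp36l1 (0.990), Tcf7l1 (0.987), Tmprss13 (0.986), Ndrg2 (0.985), St3gal4 (0.983), Prss32 (0.983), Gal3st2 (0.983), Sectm1b (0.982) and Slc7a8 (0.981). These values are descriptions, since the 8 libraries fall into 4 groups and every gene shares their depth. By Spearman's rho only Tcf7l1 of the 10 stood among the highest, and 26 of the 9834 genes shared a rho of 1. Zfp36l1 encodes a protein that promotes mRNA decay, Tcf7l1 a transcription factor of Wnt signalling and Slc7a8 an amino acid transporter. St3gal4 adds sialic acid and Gal3st2 adds sulfate to glycans.

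None of these 10 genes differed from untreated WT as much as Slc37a2. But Slc37a2 was chosen for its low level in untreated KO, and the 10 for likeness alone, so the contrast carries no test. Slc37a2 was at 49.95% of its untreated WT level in untreated KO, at 44.8% in WT under DSS and at 31.8% in KO under DSS. Gal3st2 came nearest in untreated KO, at 63.2%, and in WT under DSS, at 54.4%, and Slc7a8 came nearest in KO under DSS, at 47.5%. Prss32 moved least, to 89.8%, 86.6% and 82.9%. Among its own paralogs, the correlation with Slc37a2 was 0.42 for Slc37a1, 0.54 for Slc37a4 and -0.71 for Slc37a3.

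**Figure D5:**
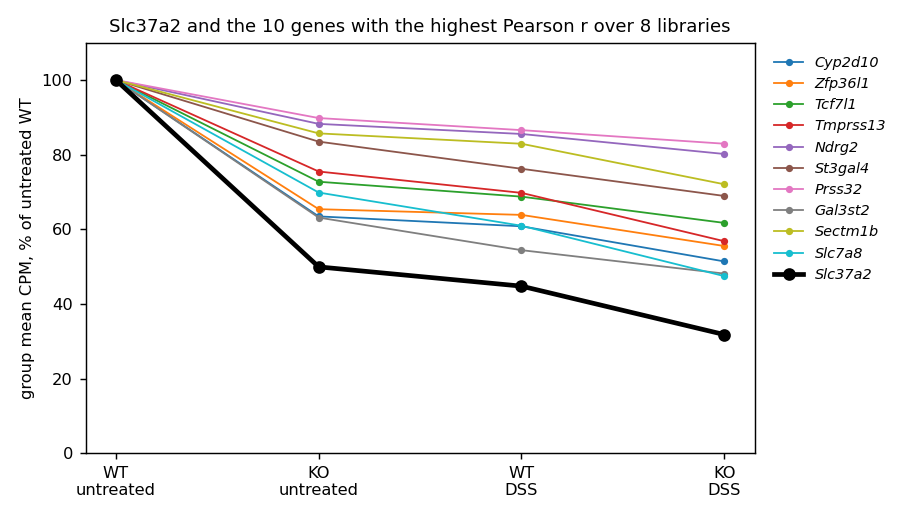
Group mean of Slc37a2 and of the 10 genes most like it, as a percentage of the mean in untreated WT (vertical axis). Slc37a2, chosen for its low level in untreated KO, is the lowest line in each of the 3 other groups, at 49.95%, 44.8% and 31.8%.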

How the data were processed

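Per the submitters' processing notes, the authors used the build mm10 and the tools STAR (2.5.3a), RSEM (1.3.0) and DESeq2 (1.18.1). Strand setting and annotation release are not given in the sources used here. Per the file headers, each deposited table lists genes with their length, effective length, expected count, TPM and FPKM. Identifiers were matched to GENCODE M21 (99.8% without version). The annotations differ for Slc37a1, which has 2 transcripts in the deposited tables and 18 in M21. Expected counts were rounded and fitted across all genes in edgeR 4.0.16 (R 4.3.3), with TMM factors, the default low-count filter (14991 genes kept) and a mean per group over all 8 libraries. Tests are quasi-likelihood F tests, two-sided and Benjamini-Hochberg adjusted over all genes tested, with a threshold of 0.05. The SE is the log2 difference divided by the square root of F. "Passed" and "called" mean past that threshold. Levels between genes use deposited TPM. FPKM, deposited by the authors, entered no test. The procedure was tested on simulated data. DESeq2 1.42.0, its size factors, no filter, effective-length offsets, fits of 2 groups, the replicate block and leaving out each library were tried. The members, the lists and the markers were chosen with earlier results of these data known. Named are the 4 members, up to 3 genes that rose and 3 that fell with the smallest p per list and comparison, the partner genes, tested neighbours within 250 kb, and the 10 genes most like Slc37a2. A gene that the rule names is not reported here by name, though list counts and medians include it. Hk3 and the examples among the markers were named after their values were seen.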

Additional observations from a re-analysis of the deposited data

Results flagged for a closer look

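The DSS change differed between KO and WT by the edgeR interaction test (DSS change in KO minus DSS change in WT, log2 scale) for the genes below, where 21.4% of all genes tested passed. Most of them were named for a small p in this same comparison, so their number says nothing more. Slc37a2 was left out because its choice used the untreated libraries.

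Among the Slc37 members it was Slc37a4, with an interaction of 0.30 ± 0.09 (SE, adjusted p = 0.0258), from DSS changes of -0.18 in WT and 0.13 in KO. It did not pass with DESeq2, nor in 5 fits that each left out 1 library.

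Of the 23 glucose 6-phosphate genes tested, 10 passed, 8 with a positive and 2 with a negative value, where 21.4% of all genes passed. Among the positive values were those of Hk2 (0.59, adjusted p = 3.15e-05), G6pdx (0.34, 0.00260), H6pd (0.63, 0.00270) and Pgls (0.39, 0.0191). Pgls was at 50.2 and 54.7 CPM in WT under DSS and at 55.9 and 68.2 CPM in KO under DSS. For Hk2 the DSS change was -0.16 in WT and 0.43 in KO. Negative values were found for Hkdc1 (-1.18, adjusted p = 0.00143), with DSS changes of 0.0026 in WT and -1.18 in KO, and for Pgm1 (-0.36, 0.00377), with 0.25 and -0.11. The value for Pgm1 was lost with effective-length offsets (-0.29, adjusted p = 0.0812).

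Of the phosphate carriers, Slc34a2 had the most negative value (-1.32, adjusted p = 1.01e-05), from DSS changes of -0.20 in WT and -1.52 in KO. Slc34a1 had 1.65 (adjusted p = 0.0182) on 8 to 57 counts per library, Slc25a3 had 0.20 (0.0284) and Xpr1 had -0.25 (0.0287). Effective-length offsets took Slc34a1 to 0.57 (adjusted p = 0.574), Slc25a3 to 0.23 (0.0517) and Xpr1 to -0.28 (0.0636), and DESeq2 gave an adjusted p of 0.200 for Slc34a1 and 0.111 for Xpr1. These 3 were lost in several fits that left out a library: Slc34a1 reached an adjusted p of up to 0.0801, Slc25a3 up to 0.141 and Xpr1 up to 0.147.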

How the results depend on the processing

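Slc37a2 kept its direction and its call in KO against WT under DSS in each alternative run. Without the low-count filter its described difference was -1.02 in untreated KO against WT and -1.18 for DSS in WT. Calls lost, with ranges over single left-out libraries, were Slc37a4 for DSS in WT (-0.18 with DESeq2, -0.14 with length offsets, -0.23 to -0.12) and for the interaction (0.31, 0.25, 0.25 to 0.37), and Slc37a3 for DSS in WT (0.24 with length offsets). The interaction of Slc37a1 ranged from 0.11 to 0.16. Signs of differences near 0 turned with length offsets for Slc37a3 (0.038 for KO against WT under DSS, 0.087 for the interaction) and Slc37a4 (-0.013 for KO against WT under DSS), without the filter for Slc37a3 (0.0052 for the interaction), and with single libraries left out for Slc37a3 (-0.057 to 0.024 under DSS, -0.053 to 0.036 for the interaction), G6pc3 (-0.0091 to 0.10 under DSS) and Atraid (-0.073 to 0.0016 for DSS in KO). The causes were not tested.

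DESeq2 called 1102, 3417, 3028, 3849 and 1472 genes for untreated KO, KO under DSS, DSS in WT, DSS in KO and the interaction, against 2310, 5855, 5573, 6231 and 3208 with edgeR. Length offsets gave 1290 for untreated KO and 1794 for the interaction. Single left-out libraries gave 953 to 3174, 4093 to 6182, 3659 to 6426, 4603 to 6263 and 1891 to 4444 in the same order. In the glucose 6-phosphate list, DESeq2 called 6 for DSS in WT (length offsets 7) and 6 for the interaction (length offsets 6), and single left-out libraries gave 3 to 8 for untreated KO and 5 to 11 for the interaction. For the interaction of the phosphate carriers these were 2, 1 and 1 to 4, and for untreated KO and DSS in WT single left-out libraries gave 2 to 4.

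The labels do not say that a replicate number pairs libraries. Same-numbered libraries had correlated deviations of 0.07, 0.36, -0.31 and -0.02 in the 4 comparisons. With the replicate block, 2186, 5791, 5449, 6142 and 3085 genes passed, and Slc25a3 in untreated KO no longer did. A crossed block for DSS in WT, chosen after seeing the data and fitted to those 2 groups alone, gave 6743, and the fit of those 2 groups without a block gave 6156. The limits of depth and of 2 libraries per group were not separated.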
